A study of Mus musculus with 3 samples.

Results

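The proteasome is the barrel-shaped protease that degrades proteins marked with ubiquitin chains. Its core particle is built from a pair of outer alpha rings, which gate the entrance, and a pair of inner beta rings, in which Psmb5, Psmb6 and Psmb7 cut the substrate. The regulatory particle caps the barrel: a base of ATPases (Psmc1 to Psmc6) and large scaffold or ubiquitin-binding subunits unfolds the substrate, and a lid that holds the deubiquitinase Psmd14 removes its ubiquitin chain. Blood progenitors that divide and make much protein depend on this machine, and SPOP, which picks the proteins that a CUL3-based ubiquitin ligase will mark, supplies some of its substrates.

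Members were the genes of the count table whose symbol begins with Psma, Psmb, Psmc or Psmd and a digit, without the inducible subunits Psmb8, Psmb9 and Psmb10. The rule named 36 of 14721 genes. Of these, 15 encode the core particle (8 alpha and 7 beta genes), 17 the regulatory particle (9 of the base and 8 of the lid) and 3, Psmd5, Psmd9 and Psmd10, chaperones that help assemble the base and are not part of the finished particle. The rule leaves out the regulatory subunits Adrm1 and Shfm1 for their names; sums called regulatory are without them unless said otherwise. The remaining gene, Psmc3ip, shares the name only: it encodes a meiotic recombination factor and was kept out of all sums. Psma8, a testis form of an alpha subunit, stood at 2.43 to 3.54 UMIs per 1000000 (CPM) and was the single member under the minimum of 20 CPM (mean over the pair compared) used for counting genes.

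The cells were sorted from mouse bone marrow as LSK, the gate (no lineage antigens, Sca-1 and Kit present) in which stem cells and multipotent progenitors lie, and were profiled in 3 droplet 3' libraries. WT mice carried both genes intact (Spop(+/+) Myd88(+/+)), KO mice had both Spop alleles deleted (Spop(D/D) Myd88(+/+)), and DKO mice were Spop(D/D) and also lacked Myd88 (Myd88(-/-)), through which most Toll-like receptors and the interleukin-1 receptor signal. There was 1 library per genotype, so nothing was tested between genotypes, and every interval below is an exact 95% interval for counting error only. The promoter that drives the deletion, the age of the mice and the number of animals behind each library are not given in the sources used here.

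The libraries held 8147 (WT), 4920 (KO) and 8184 (DKO) cells with a median of 9245, 17319 and 12404.5 UMIs per cell. Between 46 and 83 cell barcodes were shared by a pair of libraries, at most 1.10% of either. Spop transcripts stood at 70.7, 63.1 and 77.1 CPM in WT, KO and DKO, which as 3' counts give no check of the Spop deletion, and Myd88 stood at 13.7, 25.8 and 4.47 CPM. Sex was tied to genotype: the X-inactivation transcript Xist stood at 1537 CPM in DKO and at most 0.187 elsewhere. Transcripts of the sorting antigens were present in each library (Ly6a at 85.1 to 90.4 CPM, Kit at 41.5 to 94.8 CPM), with markers of other cells beside them. The 12 neutrophil progenitor markers summed to 1663, 8976 and 2901 CPM in WT, KO and DKO, the 14 erythroid markers in the table to 661, 1544 and 860 CPM, and the 10 B lineage markers to 753, 38.5 and 57.2 CPM. None of the neutrophil and erythroid markers was at 0 in any library; 3 B lineage markers were at 0 in KO. The part of these cells in the library-wide results was not tested; values by class and cluster follow.

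The 32 particle genes lie on 15 chromosomes, 6 of them on chromosome 11 (GENCODE vM21, GRCm38). Their promoters were read from the RefSeq table (GRCm38.p6), which matched 25 of the 32. In the 250 bases before the start, on both strands, the core of the antioxidant response element (TGACNNNGC), which is bound by the proteasome regulator NRF1 (gene Nfe2l1) and its relative NRF2, occurred upstream of 2 of 11 core and 2 of 14 regulatory genes. That is 16% of the particle genes, against 14.7% of 4072 genes at a mean of at least 20 CPM and 11.5% of all 27025 genes in the table. An ETS site (CCGGAAG) occurred upstream of 8 of 14 regulatory genes and 1 of 11 core genes, against 19.1% of the 4072. A CCAAT box (CCAAT) was found upstream of 6 of 11 core and 4 of 14 regulatory genes (40.6% of the 4072), and a GC box (GGGCGG) upstream of 5 and 9 (65.3%). A CCGGAAG match and a GGGCGG match can share bases, and a match is a run of letters, not a binding site.

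The response-element stretches are shown because Psmb5 and Psmb6, subunits of the catalytic centre, carry one. Of the Psmb5 stretch, 9 of 49 bases lie in an annotated exon. Capitals mark the motif, read in the gene's own direction, so that a motif on the other strand appears as its reverse complement.
Psmb5 (chr14:54618014-54618062, minus strand): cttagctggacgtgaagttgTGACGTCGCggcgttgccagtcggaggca
Psmb6 (chr11:70525328-70525356, plus strand): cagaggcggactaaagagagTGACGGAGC
Psmc6 (chr14:45329577-45329625, plus strand): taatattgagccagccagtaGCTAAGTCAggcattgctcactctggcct
Psmd12 (chr11:107479278-107479309, plus strand): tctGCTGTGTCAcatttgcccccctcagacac

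The ETS stretches show the letters found more often upstream of regulatory than of core genes in this search; capitals again mark the motif. Psmc1 and Psmd12 carry it as well and are not shown, nor is a further match of Psmc2, since these stretches lie wholly within annotated exons. Of the Psmd6 stretch shown, 21 of 47 bases lie in an exon.
Psma6 (chr12:55398673-55398719, plus strand): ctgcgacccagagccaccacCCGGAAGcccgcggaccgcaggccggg
Psmc2 (chr5:21785171-21785217, plus strand): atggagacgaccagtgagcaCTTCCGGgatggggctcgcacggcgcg
Psmc6 (chr14:45329704-45329750, plus strand): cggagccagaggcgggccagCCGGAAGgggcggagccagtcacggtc
Psmd2 (chr16:20651606-20651651, plus strand): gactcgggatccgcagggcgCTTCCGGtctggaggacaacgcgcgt
Psmd4 (chr3:95042713-95042759, minus strand): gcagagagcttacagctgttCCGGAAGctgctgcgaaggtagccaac
Psmd6 (chr14:14120964-14121010, minus strand): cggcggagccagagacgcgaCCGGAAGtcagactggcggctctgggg
Psmd11 (chr11:80428584-80428614, plus strand): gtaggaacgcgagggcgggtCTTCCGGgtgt

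Across whole libraries, transcripts of both particles were lowest in WT. Summed core particle UMIs stood at 3804 CPM in WT (3791 to 3817). The KO sum was 5160.1 CPM (5146 to 5174), and the DKO sum 4461 CPM (4448 to 4473). For the regulatory particle, WT held 1582 CPM (1574 to 1591), KO 2112 (2103 to 2121) and DKO 2011 (2003 to 2020). Core transcripts were therefore 1.36-fold the WT level in KO (1.351 to 1.363) and 1.17-fold in DKO (1.17 to 1.18), and regulatory transcripts 1.33-fold in KO (1.33 to 1.34) and 1.27-fold in DKO (1.26 to 1.28). From KO to DKO the core ratio was 0.864 (0.861 to 0.868) and the regulatory ratio 0.952 (0.947 to 0.958). With Adrm1 and Shfm1 counted in, regulatory transcripts stood at 2086, 2843 and 2501 CPM, and the regulatory ratios were 1.36 for KO/WT, 0.880 (0.875 to 0.884) for DKO/KO and 1.20 for DKO/WT. With TMM scaling, which moved the all-gene median log2 KO/WT ratio from 0.02 to 0.17 and the DKO/KO median from 0.08 to -0.12, the KO/WT ratios were 1.51 (core) and 1.48 (regulatory) and the DKO/KO ratios 0.756 and 0.833.

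Of the 31 particle genes that reached 20 CPM, 31 were above WT in KO, as were 51.5% of genes, with ratios from 1.12 to 1.77, and 27 were at least 25% higher, where 24.7% of 5141 genes were. None was at least 20% lower (the same ratio turned round), against 24% of genes. With TMM, 30 of 31 were at least 25% higher and 0 lower, beside 36.5% and 16.2% of genes. At 1.5-fold the count was 3 of 31, all higher, and the background 8.85% higher and 12.3% lower; under TMM it was 14, beside 17%. The median KO/WT ratio was 1.36 for 14 core genes and 1.30 for 17 regulatory genes, and 1.01 for all genes.

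**Figure D1:**
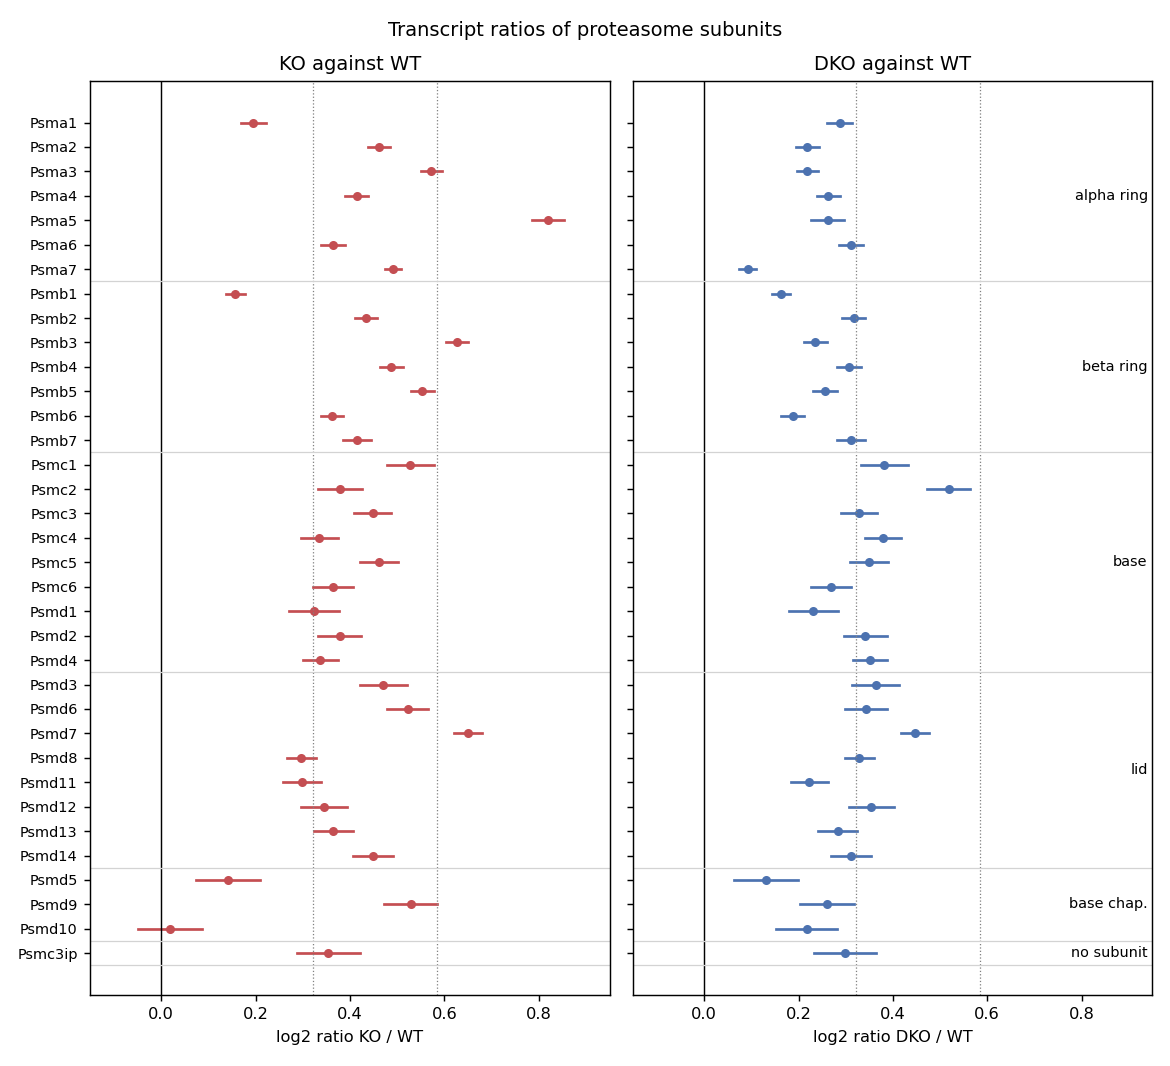
Log2 transcript ratios (x axis) of 35 members by subcomplex, KO against WT on the left and DKO against WT on the right, from the CPM of each whole library; bars are exact 95% counting intervals and dotted lines mark 25% higher and 1.5-fold. All KO/WT points but that of Psmd10 have an interval above 0, Psma5 lies farthest right in KO, and in DKO the core genes lie to the left of most base and lid genes.

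Levels of single genes over whole libraries follow in the order WT, KO, DKO. In the alpha ring, Psma5 differed most between libraries. WT held 122 CPM, KO 215 and DKO 146, so KO lay well above the others, at 1.77-fold the WT level (1.72 to 1.81). Psma7, the most abundant alpha transcript, stood at 471, 661 and 502 CPM; its DKO level was close to that of WT, at a ratio of 1.07 (1.05 to 1.08). Psma1 behaved otherwise, at 231, 265 and 282 CPM, with the smallest KO/WT ratio of the ring (1.15, 1.12 to 1.17) and its highest level in DKO. Psma5 is the least abundant alpha transcript of those measured, and the ring's levels spanned 3.87-fold in WT and 3.08-fold in KO.

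In the beta ring, the 3 catalytic subunits were all lowest in WT and highest in KO over whole libraries. Psmb5, which carries the chymotrypsin-like activity, stood at 243, 357 and 290.1 CPM (KO/WT 1.47, 1.44 to 1.49). Psmb6, the caspase-like subunit, stood at 285, 366 and 324 CPM (KO/WT 1.28, 1.26 to 1.31). Psmb7, the trypsin-like subunit and the least abundant of the ring, stood at 170.1, 227 and 211 CPM (KO/WT 1.33, 1.31 to 1.36). Among these the KO/WT interval of Psmb5 lay above those of Psmb6 and Psmb7. The structural subunit Psmb3 had the largest ratio of the ring, at 271, 418 and 319 CPM (KO/WT 1.54, 1.52 to 1.57). Psmb1, another structural subunit and the most abundant, had the smallest, at 436, 487 and 488 CPM (KO/WT 1.12, 1.10 to 1.13; DKO/KO 1.003, 0.991 to 1.02).

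The base had the narrowest range of KO/WT ratios of the 4 subcomplexes, from 1.252 (Psmd1, the largest scaffold) to 1.44 (the ATPase Psmc1). Psmc1 stood at 60.8, 87.7 and 79.2 CPM. Psmc2, another ATPase, was higher in DKO than in KO: 70.3, 91.3 and 101 CPM, a DKO/WT ratio of 1.43 (1.39 to 1.48), the highest of all 31. Psmd4, a ubiquitin receptor and the most abundant base transcript, stood at 116, 147 and 148 CPM, and Psmd1, the least abundant, at 58.1, 72.7 and 68.2 CPM. Among the 8 lid genes of the rule, Psmd7, the partner of the deubiquitinase Psmd14, was the most abundant transcript and had the largest ratio: 169.9, 267 and 231 CPM (KO/WT 1.57, 1.54 to 1.60). Psmd8 had the smallest lid ratio, at 167, 206 and 210.2 CPM (KO/WT 1.23, 1.20 to 1.255). The deubiquitinase Psmd14 itself stood at 85.7, 117 and 106 CPM, and Psmd3, the least abundant lid transcript on average, at 61.5, 85.2 and 79.1 CPM.

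The base chaperones did not share 1 pattern. Psmd9 stood at 47.7, 68.8 and 57.1 CPM (KO/WT 1.44, 1.39 to 1.499), Psmd5 at 35.7, 39.4 and 39.1 CPM, and the X-linked Psmd10 at 37.8, 38.3 and 43.9 CPM, where the KO/WT interval (0.966 to 1.06) held a ratio of 1. Psmc3ip, the gene that shares only its name, stood at 35.1, 44.8 and 43.1 CPM.

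Between KO and DKO, 12 of 14 core and 12 of 17 regulatory genes were lower in DKO, beside 42.8% of genes; the exceptions were Psma1 and Psmb1 in the core and Psmc2, Psmc4, Psmd4, Psmd8 and Psmd12 in the regulatory particle. The DKO/KO intervals of Psmb1, Psmd4 and Psmd12, and that of Psmd2 among the lower genes, held a ratio of 1. No gene of the 31 passed 1.5-fold in either direction (13.4% of 5163 genes were higher and 6.02% lower). At least 20% lower were 4, all of them core genes, beside 16.5% of genes: Psma5 (0.679), Psma7 (0.758), Psmb3 (0.763) and Psma3 (0.783), while 0 were at least 25% higher, beside 27.9%. TMM gave 13 lower, beside 30.5%. Between WT and DKO, 12 of 31 were at least 25% higher, all of them regulatory genes, beside 17.5% of 5307 genes, 0 were at least 20% lower, beside 7.42%, and none passed 1.5-fold (2.43% of genes higher and 1.87% lower); TMM gave 4, beside 13.1%.

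Core UMIs per regulatory UMI, a quantity that does not depend on the scaling between libraries, were 2.40 (2.39 to 2.42) for WT, 2.44 (2.43 to 2.46) for KO and 2.22 (2.21 to 2.23) for DKO. WT and KO lay close together and DKO lay below both. Most of that gap rested on the genes the rule counts: with Adrm1 and Shfm1 in the regulatory particle, the ratios were 1.82 (1.81 to 1.83), 1.82 (1.81 to 1.82) and 1.78 (1.78 to 1.79). Shfm1, an abundant lid transcript, stood at 443, 648 and 413 CPM. It was lower in DKO than in both other libraries (DKO/KO 0.638, 0.630 to 0.646, and DKO/WT 0.934, 0.921 to 0.946). The DKO/WT ratios of all 17 regulatory genes of the rule were above 1, as were those of 63.7% of 5307 genes. The ratio of alpha to beta ring was 0.994, 1.03 and 0.977, and that of base to lid 0.931, 0.903 and 0.938. UMIs of a 3' library count transcript ends and were not divided by gene length; such ratios were compared between libraries only.

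Cells of the 3 libraries were then clustered together, with proteasome and ubiquitin pathway genes kept out of the clustering, and clusters were named from marker lists. Also kept out were the S phase and the G2 and M phase lists, ribosomal protein and mitochondrially encoded genes, Y chromosome genes, Xist and Tsix. Of 22 clusters, 8 took a name, in 6 classes, and names end in "-like" since they rest on transcripts. Mature-neutrophil-like cells stayed under the minimum of 50 cells in each library. The other 5 classes gave 10 combinations of class and library.

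In WT, core transcripts rose in the order stem-cell-like (3134 CPM, 3086 to 3183), lymphoid-primed-like (3474, 3447 to 3502), megakaryocyte-progenitor-like (4114, 4061 to 4166) and B-lineage-like cells (4864, 4819 to 4910), and no neighbours in this order had overlapping intervals. Regulatory transcripts stood in the same order, at 1218, 1393, 1721 and 2193 CPM. Cell cycle transcripts and depth stood in this order as well: the summed G2 and M phase list stood at 345, 532, 3195 and 3631 CPM, and median UMIs per cell were 7549, 8115.5, 11062 and 13055. Their part in the order was not tested. Of the 31 measured particle subunits, Psmd13 of the lid varied most across the 10 combinations, 3.19-fold, from 47.8 CPM in WT stem-cell-like to 153 in WT B-lineage-like cells. Psmd2 (2.50-fold) and Psmc4 (2.43-fold), both of the base, came next among them. Outside the particles, Psmc3ip spanned 3.42-fold and the chaperone Psmd9 2.58-fold. The narrowest ranges were in the rings: Psmb1 1.29-fold, Psma7 1.51-fold and Psma4 1.55-fold.

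**Figure D2:**
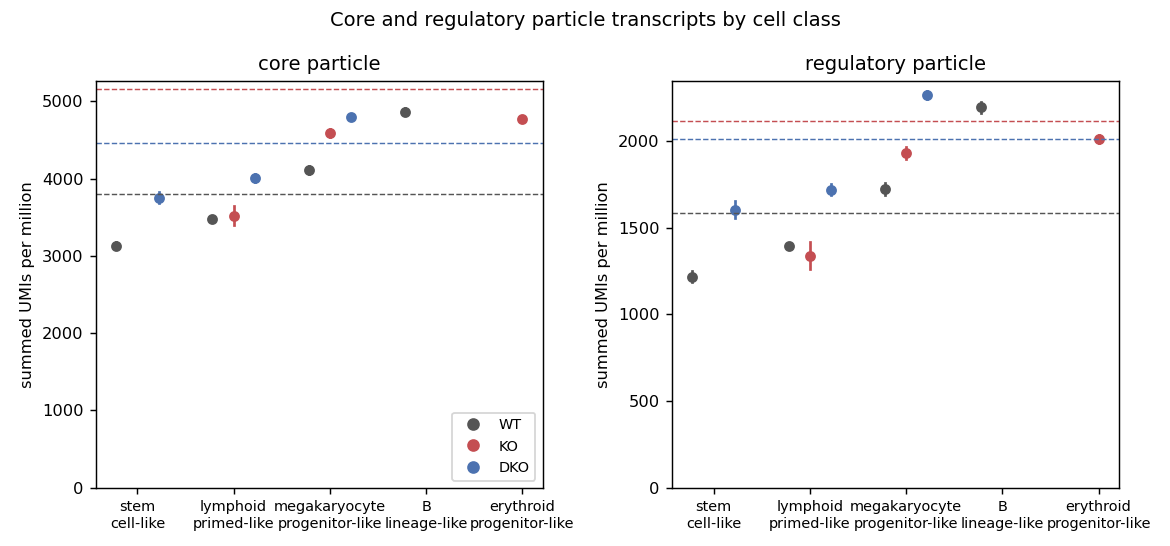
Summed CPM (UMIs per 1000000, y axis) of the core (left) and regulatory particle (right) in 5 cell classes, coloured by library; bars are exact 95% counting intervals and dashed lines the whole libraries. WT stem-cell-like cells are lowest for both particles, KO lies at or slightly above WT within a class except for regulatory transcripts of lymphoid-primed-like cells, and DKO is the highest library in each class that holds more than 1.

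Within classes the order of the libraries was not that of the whole libraries. Among megakaryocyte-progenitor-like cells, with 501 from WT, 450 from KO and 1060 from DKO, core transcripts stood at 4114, 4590.0 and 4797 CPM and regulatory transcripts at 1721, 1929 and 2266 CPM. KO was 1.12-fold the WT level for the core (1.10 to 1.13) and 1.12-fold for the regulatory particle (1.09 to 1.15). DKO was higher than KO for both, 1.05-fold (1.03 to 1.06) and 1.17-fold (1.15 to 1.20), where the whole libraries had ratios below 1. The median DKO/KO ratio of all genes in this class was 1.08, above the core value and below the regulatory value. Of 31 subunits, 2 were at least 25% higher in KO than in WT, beside 9.43% of 5162 genes, and 0 at least 20% lower, beside 11.3%. From KO to DKO 8 were higher and 0 lower, beside 23% and 7.47% of 5221 genes, and from WT to DKO 15 were higher and 0 lower, beside 18.3% and 5.83% of 5299 genes. In that class the KO/WT ratio was largest for Psmd7 (1.34) and smallest for Psmc2 (0.891), and the DKO/KO ratio largest for Psmc2 (1.54). Psma5, with the largest KO/WT ratio over whole libraries, stood at 124, 139 and 147 CPM in WT, KO and DKO of this class. Psmb6 and Psmb7 were highest in DKO there, and Psmb5 was close in KO and DKO (319 and 316 CPM). In cells of this class with 8000 to 16000 UMIs, the KO/WT ratio was 1.02 for the core and 0.988 for the regulatory particle.

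In lymphoid-primed-like cells (2048 WT, 73 KO, 543 DKO), KO did not stand above WT: core transcripts were at 3474, 3523 and 4005 CPM and regulatory transcripts at 1393, 1337 and 1719 CPM. Both KO/WT intervals held a ratio of 1 (0.977 to 1.05 for the core, 0.904 to 1.02 for the regulatory particle), with 1 subunit at least 25% higher and 2 at least 20% lower in KO, beside 11% and 22.4% of 5015 genes. DKO was 1.14-fold (1.09 to 1.18) and 1.29-fold (1.21 to 1.37) the KO level, and 15 of 31 subunits were at least 25% higher in DKO than in KO and 0 at least 20% lower, beside 28.2% and 12.1% of 4996 genes. Against WT, 8 were higher and 0 lower in DKO, beside 12.6% and 10.3% of 5181 genes. Psma5 stood at 111, 100 and 133 CPM in WT, KO and DKO of this class. Different clusters held most of this class: 1539 of the WT cells lay in cluster 0 and 51 of the KO cells in cluster 13. Within cluster 13 alone, core levels were 3713, 3637 and 4378 CPM in WT, KO and DKO, and regulatory levels 1510, 1400 and 1845 CPM. The KO/WT ratio there was 0.980 (0.938 to 1.02) for the core and 0.927 (0.864 to 0.993) for the regulatory particle. In stem-cell-like cells KO had 16 cells and was not compared; DKO (297 cells) was 1.20-fold the WT level (667 cells) for the core (1.17 to 1.23) and 1.32-fold for the regulatory particle (1.27 to 1.37), with 18 of 31 subunits at least 25% higher and 0 at least 20% lower, beside 22.5% and 7.23% of 5408 genes.

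The highest level in the KO library was in a cluster that the other libraries hardly held. Cluster 8, led by the granule and monocyte genes Ly6c2, Clec5a, Ms4a3 and Elane and given no class name, had 1090 KO, 22 WT and 49 DKO cells. Its KO cells held 6205 CPM of core and 2556 CPM of regulatory transcripts, the highest of 38 combinations of cluster and library with at least 50 cells, at a median depth of 35751 UMIs per cell. Cluster 12, megakaryocyte-progenitor-like and held by all 3 libraries, stood at 4797 and 2077 CPM in KO. Erythroid-progenitor-like cells, 985 of them from KO and 5 from the others, held 4777 and 2012 CPM. Cluster 14, led by Vldlr and by interferon-induced genes such as Ifi27l2a, had 738 KO cells at 3934 and 1521 CPM, the second lowest core level among KO clusters. Where 1 library fills a cluster, cell type and library cannot be told apart. Without cluster 8 and the erythroid, B lineage and mature neutrophil classes (7460 WT, 2796 KO and 8102 DKO cells left), the KO/WT ratio was 1.20 for the core and 1.18 for the regulatory particle, and the DKO/KO ratio 1.01 and 1.13. With those classes left out but cluster 8 kept, the KO/WT ratios were 1.42 and 1.41. Standardised to the WT shares of the 7 clusters with at least 20 cells in each library (35.6% of the WT library, 38.0% of KO, 25.1% of DKO), the KO/WT ratio was 1.02 for the core and 0.957 for the regulatory particle, and the DKO/KO ratio 1.08 and 1.253. Of these 4 values, 3 lay on the other side of 1 from the whole libraries. Cluster 0, with 22 KO cells, carried 53.0% of that weight. Over the 3 clusters with at least 50 cells in each library, the values were 1.04 and 1.01 for KO/WT and 1.13 and 1.252 for DKO/KO.

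Among clusters with at least 50 cells of both libraries, DKO was above WT in 13 of 13 for the core (1.05 to 1.30) and in 13 of 13 for the regulatory particle (1.16 to 1.34), and the regulatory ratio was the larger in all 13. In all 13 the all-gene median DKO/WT ratio was above 1 as well, and below the core ratio. It ran from 1.02 (cluster 13) to 1.07 (cluster 11). DKO was above KO in 4 of 4 clusters for both particles (core 1.01 to 1.20, regulatory 1.11 to 1.32). The all-gene median DKO/KO ratio lay above the core ratio in clusters 12 (1.07 against 1.01) and 19 (1.10 against 1.07). It lay below the core ratio in clusters 6 (1.08 against 1.09) and 13 (1.07 against 1.20), and below the regulatory ratio in all 4. KO against WT could be set side by side in 3 clusters, at 0.980, 1.07 and 1.15 for the core. In the same order the regulatory ratios were 0.927, 1.05 and 1.17. Core UMIs per regulatory UMI were lower in DKO than in WT in 13 of 13 clusters, with intervals apart in 10, and lower than in KO in 4 of 4, with intervals apart in 3. With Adrm1 and Shfm1 counted in, they were lower than in WT in 11 of 13, with intervals apart in 2, and lower than in KO in 4 of 4, with intervals apart in 1. Shfm1 itself was lower in DKO than in WT in 13 of 13 clusters (0.841 to 0.974) and lower than in KO in 4 of 4 (0.754 to 0.892). Psma7 had the lowest DKO/WT ratio of the 31 subunits in 7 of the 13 clusters, and Psmc2 the highest in 4. These clusters share 1 library per genotype and are not replicates of it.

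**Figure D3:**
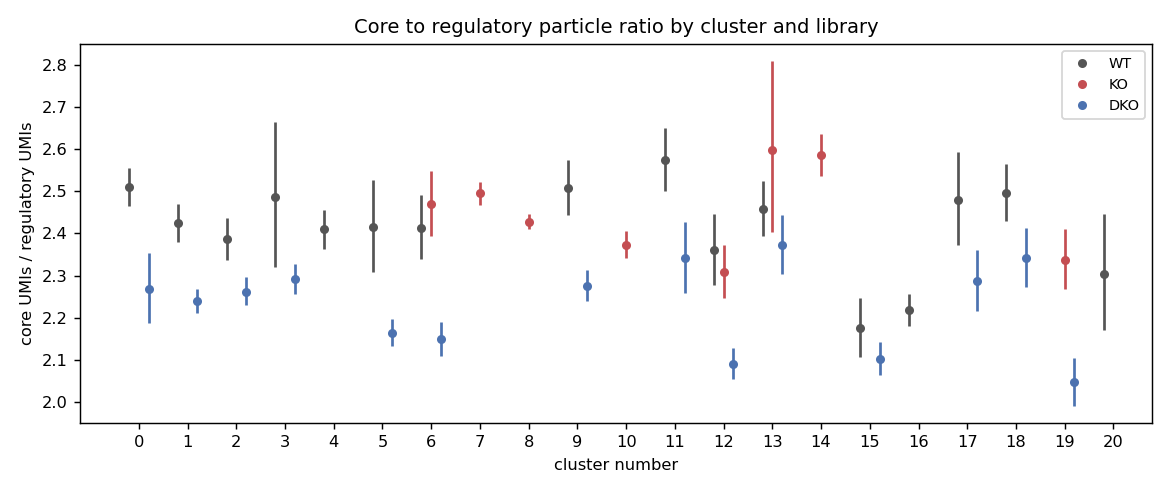
Core UMIs per regulatory UMI, without Adrm1 and Shfm1 (y axis, not starting at 0), in each cluster with at least 50 cells of a library (x axis, cluster number), coloured by library with exact 95% counting intervals. The DKO points lie below the WT points in all 13 clusters that hold both and below the KO points in all 4.

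Across the 38 combinations, core and regulatory levels moved together (Pearson r of log2 levels 0.946), and the core level also went with median UMIs per cell (r 0.775) and with the G2 and M phase list (r 0.597). These are descriptions: the points share cells, totals and libraries. Levels were therefore set side by side at like depth. In cells of 4000 to 8000 UMIs, core transcripts stood at 3176, 3473 and 3681 CPM (WT, KO, DKO), and in cells of 16000 to 24000 UMIs at 4424, 4719 and 4770.4 CPM. The level rose with depth in each library, and DKO was the highest at both depths. Across 5 ranges of depth the KO/WT ratio was 1.06 to 1.10 for the core and 1.002 to 1.11 for the regulatory particle, against 1.36 and 1.33 over all cells. DKO/WT was 1.08 to 1.16 for the core in the 4 ranges below 24000 UMIs and 0.956 above, where WT had 85 cells. The regulatory DKO/WT ratio was 1.15 to 1.26 below 24000 UMIs and 0.968 above. DKO/KO was 1.01 to 1.07 for the core and 1.13 to 1.23 for the regulatory particle below 24000 UMIs. Above that depth, where KO had 1463 cells, it was 0.866 and 0.934. DKO had the lowest ratio of core to regulatory UMIs in each of the 5 ranges, although its interval overlapped that of KO at 4000 to 8000 UMIs and that of WT above 24000. With Adrm1 and Shfm1 counted in, it was below WT in 5 of 5 ranges (intervals apart in 3) and below KO in 4 of 5 (apart in 2). In cells with under 0.2% of UMIs from cell cycle genes, the core and regulatory ratios were 1.12 and 1.05 for KO/WT and 1.06 and 1.21 for DKO/KO.

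**Figure D4:**
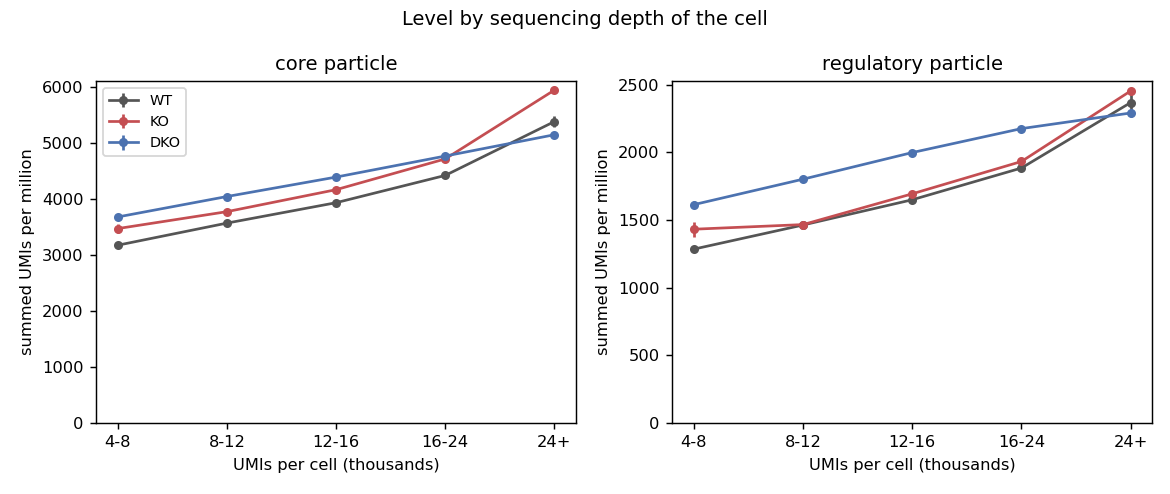
Summed CPM (UMIs per 1000000, y axis) of the core (left) and regulatory particle (right) in cells grouped by their UMI count (x axis, in units of 1000), by library; bars are exact 95% counting intervals. Levels rise from left to right in each library, DKO lies highest up to 24000 UMIs, and KO lies highest above that.

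After each cell was thinned to 5000 UMIs, which dropped shallower cells (411 in WT, 0 in KO, 65 in DKO), the median was 17 core UMIs in WT (quartiles 14 and 22), 23 in KO (18 and 28) and 21 in DKO (17 and 25). More than the WT median of 17 was held by 75.8% of KO cells, 73.9% of DKO cells and 49.7% of WT cells. The cells of a library are not replicates of its genotype. The KO distribution was the widest, with a variance 2.66 times its mean, against 2.03 in WT and 1.67 in DKO. For the regulatory particle the medians were 7, 9 and 9 UMIs. Without thinning, the median share of a cell's UMIs from the core was 0.352% in WT, 0.456% in KO and 0.429% in DKO. Within classes the order at 5000 UMIs differed. Median core UMIs were 17 in WT, 16 in KO and 19 in DKO for lymphoid-primed-like cells. For megakaryocyte-progenitor-like cells they were 20, 22 and 23, so DKO, not KO, had the highest median in both classes.

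**Figure D5:**
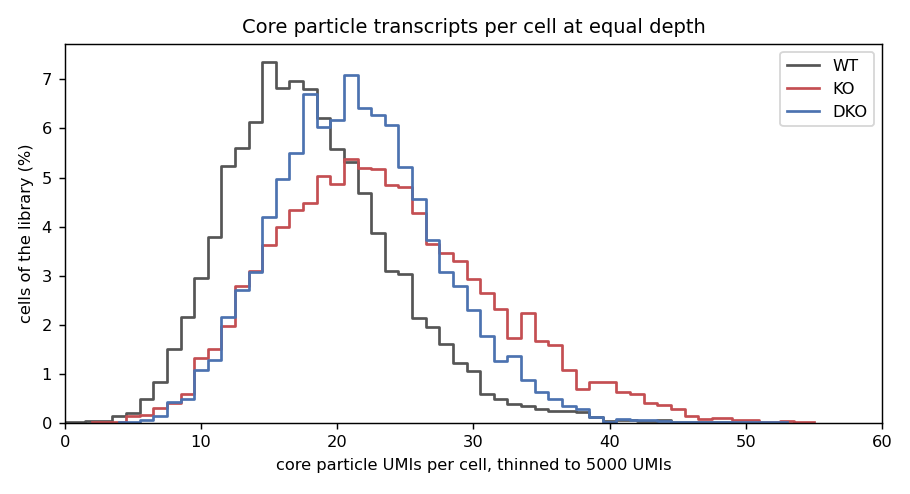
Share of a library's cells (y axis, %) by number of core particle UMIs per cell after thinning to 5000 UMIs (x axis). WT peaks at the left, DKO is shifted to the right of it, and KO is the broadest, with a tail at high counts.

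The inducible subunits Psmb8, Psmb9 and Psmb10, which replace Psmb5, Psmb6 and Psmb7 in the immunoproteasome, were set beside their constitutive partners. Psmb8 stood at 588, 673 and 724 CPM in WT, KO and DKO, Psmb9 at 231, 258 and 276, and Psmb10 at 150.2, 229.8 and 193. Psmb8 and Psmb9 were highest in DKO, while Psmb10 was highest in KO, like Psmb7. Inducible UMIs per constitutive UMI were 1.39 (1.37 to 1.40) for WT, 1.22 (1.21 to 1.23) for KO and 1.45 (1.43 to 1.46) for DKO. Within megakaryocyte-progenitor-like cells they were 1.07 (1.03 to 1.11), 1.05 (1.02 to 1.09) and 1.16 (1.13 to 1.19). Within lymphoid-primed-like cells they were 1.53 (1.49 to 1.57), 1.81 (1.63 to 2.03) and 1.66 (1.59 to 1.72). The KO and WT intervals overlapped in the first class, where KO lay below DKO, and KO lay above WT in the other. A KO value apart from and below WT, as in the whole libraries, was thus seen in neither class.

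Partners of the proteasome were counted from lists, at 20 CPM, and the counts stand beside the 24.7% of all genes at least 25% higher and the 24% at least 20% lower in KO than in WT. Of the capping activators and the inhibitor Psmf1, 3 of 4 measured genes were at least 25% higher in KO than in WT; Psme2, an interferon-inducible activator subunit, had the largest ratio (1.51, 1.48 to 1.53) and its partner Psme1 the smallest (1.06, 1.05 to 1.08). Of the core assembly chaperones, 2 of 5 were, with Psmg3 at 1.70 (1.64 to 1.76) and Psmg2 at 1.19 (1.15 to 1.24). The ubiquitin receptor Adrm1 stood at 61.4, 82.7 and 76.0 CPM (KO/WT 1.346), and Shfm1 (now called Sem1) had a KO/WT ratio of 1.46; both were at least 25% higher. Of the proteasome-bound enzymes, 2 of 3 were higher, with the deubiquitinase Uchl5 at 1.46 and the ligase Ube3c at 0.886. The substrate shuttles and the VCP segregase group had 1 of 7 higher, Rad23b at 1.28 (1.24 to 1.32), which carries ubiquitinated proteins to the proteasome.

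Of 5 measured genes that regulate proteasome transcription, 0 were at least 25% higher and 1 was at least 20% lower in KO than in WT, beside the same shares of all genes. Nfe2l1, which encodes NRF1, stood at 20.3, 21.6 and 18.0 CPM. Ddi2, the protease that releases NRF1, had the largest ratio (1.17, 1.11 to 1.24), and Ngly1, the glycanase that processes NRF1, the smallest, at 24.8, 15.5 and 29.8 CPM (0.624, 0.584 to 0.666). For ubiquitin and its activation, 0 of 5 measured genes were at least 25% higher and 2 at least 20% lower, beside the same shares. Their median KO/WT ratio was 0.808, against 1.01 for all genes. The ubiquitin-activating enzyme Uba1 had a KO/WT ratio of 1.21 (1.17 to 1.26). The polyubiquitin gene Ubb stood at 1889, 1526 and 2762 CPM, highest in DKO and lowest in KO, an order that none of the 31 measured subunits had. The immediate early list, genes that cells induce within minutes of a stimulus, took the lowest level in the same library, at 2819, 560.0 and 1705 CPM for 20 genes, 2 of them at 0 in KO and 1 in DKO. Its part in the Ubb values was not tested.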

How the data were processed

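The authors deposited UMI counts, whole numbers with no scaling, for 21251 cells and 14721 genes. The submitters' processing notes name the tools Cell Ranger, bcl2fastq and Seurat and the build mm10. Which tool made which step is not given in the sources used here. Counts were summed per library, or per class and library, and divided by the total. Ratios carry exact conditional binomial, levels exact Poisson intervals. The members, gene lists, classes and thresholds were chosen with earlier results of these data known. Clusters came from 2000 variable genes, 30 components, 20 neighbours and Leiden resolution 1 (scanpy 1.11.5); a name needed 3 list markers among the top 15 genes and a lead of 2. Ly6a, Ifitm1 and Ifitm3 did not count towards a name, which was set after the clusters were seen. All cells were kept; doublets were not called, and an alternative left out the highest Scrublet scores (0.8% per 1000 cells). TMM factors came from edgeR 4.0.16. Named genes were the catalytic and inducible subunits, the extremes of each subcomplex by ratio and abundance, those past 1.5-fold, those with the 3 widest and 3 narrowest ranges over classes, and the extremes of each partner list above 20 CPM; others were named after their values were seen, and some genes of the partner lists are not reported here. Tested on simulated data for KO over WT with 14721 genes, 50 of 50 genes set at 1.35-fold passed 1.25-fold and 0 of 5035 unchanged genes did. Both simulated libraries were drawn from the summed WT profile with counting noise only. The simulation therefore cannot tell how often genes pass 1.25-fold through differences between animals, libraries or cell mixtures. Promoter motifs were searched in RefSeq sequences; in 28 of 31 member promoters the last 20 bases matched a transcript of the gene in sense. A count of 0 allows up to 3 counts. The depths of the libraries were 85700749 (WT), 101393024 (KO) and 109920419 (DKO) UMIs.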

Additional observations from a re-analysis of the deposited data

How the results depend on the processing

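No paired analysis was possible because each genotype has 1 library, and for the same reason there was no replicate to leave out. In every alternative run on whole libraries, DKO kept the lowest core to regulatory ratio of the 3 libraries, by the least with Adrm1 and Shfm1 in the regulatory particle (1.82, 1.82 and 1.78; regulatory 1.36, 0.880 and 1.20), and both particles stayed above WT in DKO. The core to regulatory ratio is taken within a library, so runs that changed only the scaling between libraries could not change it. What depended on the cells chosen was the KO level. Values are ratios, core then regulatory, in the order KO/WT, DKO/KO and DKO/WT.

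Scaling kept each direction: TMM gave 1.51 and 1.48, 0.756 and 0.833, 1.14 and 1.23, median-of-ratios 1.52 and 1.5, 0.752 and 0.828, 1.15 and 1.24, and totals without the 50 most abundant genes 1.30 and 1.28, 0.877 and 0.966, 1.14 and 1.23. In that order of scalings, 14, 15 and 1 subunits were at least 1.5-fold higher in KO than in WT (17%, 18.1% and 6.5% of genes), 2 and 3 (the first pair) at least 1.5-fold lower (13% and 13.3%) and 13 and 13 at least 20% lower in DKO than in KO (30.5% and 31.3%), and 4, 5 and 4 at least 25% higher in DKO than in WT (13.1%, 14% and 13.4%); the last scaling left 17 at least 25% higher in KO (18.6%).

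Equal weight for each cell gave 1.30 and 1.28, 0.915 and 1.01 (the other side of 1), 1.19 and 1.30, core to regulatory ratios of 2.43 (WT) and 2.46 (KO), 1 subunit at least 20% lower in DKO than in KO and 19 at least 25% higher in DKO than in WT (14.1% and 18.4% of genes). With the erythroid, mature neutrophil and B lineage classes removed (the granule-led cluster 8 took no name and stayed), the values were 1.42 and 1.41, 0.856 and 0.946, 1.21 and 1.33, with a WT ratio of 2.44; 7 subunits were at least 1.5-fold higher in KO, 1 lower in DKO than in KO and 1 higher in DKO than in WT (11.4%, 6.5% and 2.42% of genes), where 20 were at least 25% higher (18.2%). With cluster 8 removed too, the values were 1.20 and 1.18, 1.01 and 1.13 (both reversed), 1.21 and 1.33, the ratios 2.44 (WT) and 2.48 (KO) and the median log2 DKO/KO ratio 0.12; from WT to KO 0 subunits were 1.5-fold and 8 were 25% higher (14.1% of genes), from KO to DKO 1 was 25% higher and 0 were 20% lower (26.1% and 7.57%), and from WT to DKO 1 was 1.5-fold and 20 were 25% higher (18.2%). Leaving out the highest doublet scores gave 1.17 for the core in DKO/WT. Without clusters led by immediate early genes (added after seeing the data, as were the low cell cycle cells, the depth range within classes, the removal of cluster 8, the counting of Adrm1 and Shfm1 and the 50-cell standardisation) the KO/WT values were 1.32 and 1.31, the DKO/WT values 1.15 and 1.24 with 6 subunits at least 25% higher (17% of genes), and the DKO ratio 2.24.

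In cells of 8000 to 16000 UMIs (4090 WT, 1912 KO, 4546 DKO) the values were 1.08 and 1.04, 1.05 and 1.19 (both reversed), 1.13 and 1.23, the KO ratio 2.50 and the median log2 DKO/KO ratio 0.19; 0 subunits were 1.5-fold and 2 were 25% higher in KO than in WT (3.49% and 9.31% of genes), from KO to DKO 7 were 25% higher and 0 were 20% lower (28.2% and 10.2%), and 5 were 25% higher in DKO than in WT (16.6%). Standardised to WT cluster shares, the values were 1.02 and 0.957 (reversed), 1.08 and 1.253 (both reversed), 1.10 and 1.20, with ratios of 2.47, 2.62 and 2.26 in WT, KO and DKO and median log2 ratios of -0.0314 (KO/WT) and 0.225 (DKO/KO). There 0 subunits were 1.5-fold higher, 1 was 25% higher and 3 were 20% lower in KO than in WT (10.8% and 21.3% of genes); from KO to DKO 1 was 1.5-fold and 10 were 25% higher and 0 were 20% lower (28% and 11.3%), and 5 were 25% higher in DKO than in WT (12.4%). Standardised over clusters of at least 50 cells, the KO/WT values were 1.04 and 1.01 and the DKO/KO values 1.13 and 1.252 (both reversed), the ratios 2.43, 2.49 and 2.24 and the median log2 DKO/KO ratio 0.29; 0 subunits were 1.5-fold and 0 were 25% higher in KO than in WT (5.34% of genes at 25%), and from KO to DKO 1 was 1.5-fold, 12 were 25% higher and 0 were 20% lower (24.6% and 8.23% of genes at 25% higher and 20% lower). In cells with under 0.2% cell cycle UMIs (2885 WT, 424 KO, 1915 DKO) the values were 1.12 and 1.05, 1.06 and 1.21 (both reversed), and 1.18 for the DKO/WT core, with ratios of 2.48, 2.64 and 2.29, a median log2 DKO/KO ratio of 0.21, 0 subunits 1.5-fold and 2 subunits 25% higher in KO than in WT (9.27% of genes at 25%), and, from KO to DKO, 10 were 25% higher and 0 were 20% lower (33.6% and 7.59%). The cause of these reversals was not tested.

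Within classes, cells of 8000 to 16000 UMIs gave megakaryocyte-progenitor-like ratios of 1.02 and 0.988 (reversed) for KO/WT, 1.09 and 1.29 for DKO/KO and 1.11 and 1.27 for DKO/WT, lymphoid-primed-like ratios of 0.953 (reversed) and 0.902 for KO/WT and 1.09 and 1.15 for DKO/WT, and 1.15 for the stem-cell-like DKO/WT core. Low cell cycle cells gave DKO/WT values of 1.13 and 1.12 in megakaryocyte-progenitor-like and 1.08 and 1.15 in lymphoid-primed-like cells. The lymphoid-primed-like core KO/WT ratio, whose interval held 1, was 0.965 at resolution 0.6 and 0.985 at 1.5 (both reversed), with DKO/KO at 1.22 and 1.20 and DKO/WT at 1.17 and 1.18 (regulatory 1.27 at 1.5); resolution 1.5 gave 1.10 and 1.15 for the megakaryocyte-progenitor-like core in KO/WT and DKO/WT, and clustering with cell cycle genes lymphoid-primed-like DKO/WT values of 1.19 and 1.31. With no minimum level, 1 member, Psma8, was at least 20% lower in KO and in DKO than in WT; at 2-fold, 0 subunits were higher in KO. Median subunit levels gave core to regulatory ratios of 2.99, 3.07 and 2.89, chaperones counted in the regulatory particle 2.23, 2.28 and 2.07, and leaving out the most abundant subunits 2.36 in WT.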
